A study of Mus musculus with 8 samples.

Results

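The genes described here encode the mitochondrial ribosomal proteins, taken as all mouse symbols made of Mrpl (large subunit) or Mrps (small subunit), a number and at most 1 letter from a to c. The rule found 78 genes among the 55335 identifiers of the expression table, 49 of the large and 29 of the small subunit, all annotated as protein-coding. RNA was sequenced from MC3T3-E1, a cell line of bone-forming precursors derived from mouse skull, after 3 days with one of a pair of bone scaffolds. TABS, the submitters' Trio-Active bone scaffold, gave 4 libraries, and HA, a hydroxyapatite scaffold doped with magnesium, gave the other 4. No library came from cells without a scaffold, so each difference is TABS relative to HA. The labels do not say that the replicates of a group were separate cultures, and p-values then measure only the spread between these libraries.

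The mitochondrial ribosome translates the few messages that the mitochondrial genome encodes, all of them for membrane subunits of the respiratory chain and ATP synthase. Its RNAs are transcribed inside the organelle, while its proteins are encoded in the nucleus, made in the cytosol and imported, so assembly draws on both genomes. The large subunit joins amino acids and guides the new chain to the inner membrane, and the small subunit binds the message and reads its codons. Some of the proteins descend from bacterial ribosomal proteins and others were added in the mitochondrial lineage. In bone-forming cells, respiration is one of the sources of energy for matrix production.

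The sequence around the start of these genes is shown first, because some motif letters stood there in a larger share of windows than for other tested genes. Windows of 250 bases before and 50 bases from the transcription start on, from RefSeq (GRCm38.p6), were found for 69 of the 78 genes (75 windows, since Mrpl48 has 4, Mrpl2 has 3 and Mrps16 has 2, of which those of Mrpl2 and Mrps16 overlap). Motif letters were searched on both strands. The NRF1 letters (GCGC, any base, then TGCGC) stood in 13 of the 75 windows (17.3%), against 10.6% of 10466 windows of the other tested genes and 4.6% of all 32851. Letters of the ETS factors such as GABP (CCGGAAG) stood in 26 (34.7%, against 18.9% and 8.86%). Those of YY1 (AANATGGC) stood in 21 (28%, against 8.87% and 6.05%). NRF1, GABP and YY1 are transcription factors known for acting on nuclear genes of mitochondria. The TATA letters TATAAA were as frequent in the windows of these genes (6.67%) as in those of other tested genes (6.69%). At least 1 of the NRF1, ETS and YY1 letters was found in 47 of 75 windows (62.7%), against 33.2% and 17.4%. Matches of different motifs may overlap at their ends, and a window was counted once for each motif. These shares are descriptions with no test, and a match is not evidence that a factor binds.

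Stretches before the start of 4 genes show the NRF1 and ETS letters, in capitals and 5′ to 3′ on the strand of the gene. Mrps21 and Mrpl12 were chosen as highly expressed members of the small and large subunit whose windows hold the NRF1 letters. The windows of Mrpl10, Mrpl28 and Mrps6, also among the highest members, held none of the NRF1, ETS and YY1 letters. Mrpl45 was chosen for its pair of NRF1 matches before the start, with another after it that is not printed. Mrpl43 was chosen as a member with a pair of ETS matches. Each ends at the base before the start. In GRCm38.p6 they lie at chr3:95871515-95871644 (minus strand), chr11:120484507-120484636 (plus), chr11:97315586-97315715 (plus) and chr19:45006443-45006522 (minus).
Mrps21: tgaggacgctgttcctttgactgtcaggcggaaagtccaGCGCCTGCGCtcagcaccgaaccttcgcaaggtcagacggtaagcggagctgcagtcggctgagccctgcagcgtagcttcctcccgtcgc
Mrpl12: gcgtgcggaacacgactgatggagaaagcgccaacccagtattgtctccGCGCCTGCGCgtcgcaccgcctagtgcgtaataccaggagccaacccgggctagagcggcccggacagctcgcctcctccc
Mrpl45: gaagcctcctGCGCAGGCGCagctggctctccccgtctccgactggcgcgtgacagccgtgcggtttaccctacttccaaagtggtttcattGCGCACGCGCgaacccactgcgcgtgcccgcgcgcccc
Mrpl43: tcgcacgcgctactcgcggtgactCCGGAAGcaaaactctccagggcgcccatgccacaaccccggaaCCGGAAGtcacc

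The YY1 letters sat mostly behind the start. Of the 21 windows that held them, 16 held them within the 50 bases from the start on (21.3% of the 75 windows, against 4.4% of the windows of other tested genes). The letters contain ATG, and whether a match is the start codon of the protein was not tested. Sites of 30 bases from 4 genes show them in capitals, at chr6:125192207-125192236 (plus strand), chr11:115403761-115403790 (plus), chr11:115604147-115604176 (plus) and chr13:118387219-118387248 (minus).
Mrpl51: gggtaaggcccAAAATGGCtcctcttactg
Mrpl58: cctgggaggtgAACATGGCgaccgcctggg
Mrps7: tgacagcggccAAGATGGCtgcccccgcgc
Mrps30: cgcggcgggcgAAAATGGCggcggccaggt

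The 78 genes lay on 17 chromosomes, 11 of them on chromosome 11 and 8 on chromosome 17. Many stood back to back with another gene. For 23 of the 78 (29.5%), a protein-coding gene on the opposite strand started within 1000 bases upstream or with starts overlapping by at most 200 bases, against 13.1% of 10115 other tested protein-coding genes. Some such neighbours, named here as examples, are themselves part of mitochondrial metabolism or protein synthesis. Their share among the 23 was not set against that among the neighbours of other genes. Mrpl36 faced Ndufs6, a subunit gene of respiratory complex I, and Mrps12 faced Sars2, the mitochondrial seryl-tRNA synthetase gene. Mrpl49 faced Fau, which encodes a ribosomal protein of the cytosol. Of the 22 neighbours that were tested, 0 passed the test between the scaffolds (limma, adjusted p under 0.05, against 7.38% of all tested genes), with log2 fold changes from -0.13 (Wdfy1, beside Mrpl44) to 0.24 (Gga3, beside Mrps7). At an unadjusted p under 0.05 there were 3 neighbours, 2 higher and 1 lower (13.6%, against 24.1% of all tested genes).

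Values are FPKM, fragments per kilobase of transcript scaled to the library's fragments, so levels of different genes can be compared per length. No read totals were given, so the depth behind each value is unknown. The sums of all FPKM spanned 304893 to 307263 on TABS and 312629 to 317439 on HA, and 11187 to 11357 genes reached 1 FPKM per library. Osteoblast markers were present, with all 9 listed genes at 1 FPKM or more in at least 4 libraries, Alpl in HA libraries alone. They summed to 4970 to 5520 FPKM on TABS and 4790 to 5010 on HA, but most of that sum was Spp1 (3305 ± 239 and 2431 ± 259 FPKM, SD, n = 4), the 1 marker higher on TABS (log2 fold change 0.45, limma adjusted p = 0.0207). The other 8 had estimates below 0, and Ibsp (-1.73), Alpl (-0.68), Sp7 (-0.49), Sparc (-0.40) and Col1a1 (-0.39) passed the test. Markers of endothelium, fat and skeletal muscle summed to under 1 FPKM in each library, the highest being 0.568. Of 5 macrophage markers only Cd14 reached 1 FPKM, and the list summed to 6.94 to 9.08 FPKM on TABS and 6.11 to 6.84 on HA, with Itgam at 0 throughout. Of 3 cartilage markers 1 reached 1 FPKM (sums 5.69 to 6.42 on TABS and 4.08 to 5.24 on HA). Their part in the results was not tested. Because these are bulk samples, fewer cells and less RNA per cell cannot be told apart.

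All 78 genes were expressed at 1 FPKM or more in each of the 8 libraries, so none was lost to the filter on low values. Their mean over the 8 libraries spanned 36.2-fold between genes, with a median of 11.3 FPKM against 6.97 over the 11280 tested genes. Summed, they came to 1198, 1210, 1272 and 1221 FPKM on TABS 1 to 4 and to 1332, 1265, 1258 and 1190 on HA 1 to 4. The groups overlapped, with HA 1 the highest and HA 4 the lowest library. As a share of all FPKM the genes took 0.40% ± 0.012 on TABS and 0.40% ± 0.017 on HA (SD, n = 4).

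**Figure D1:**
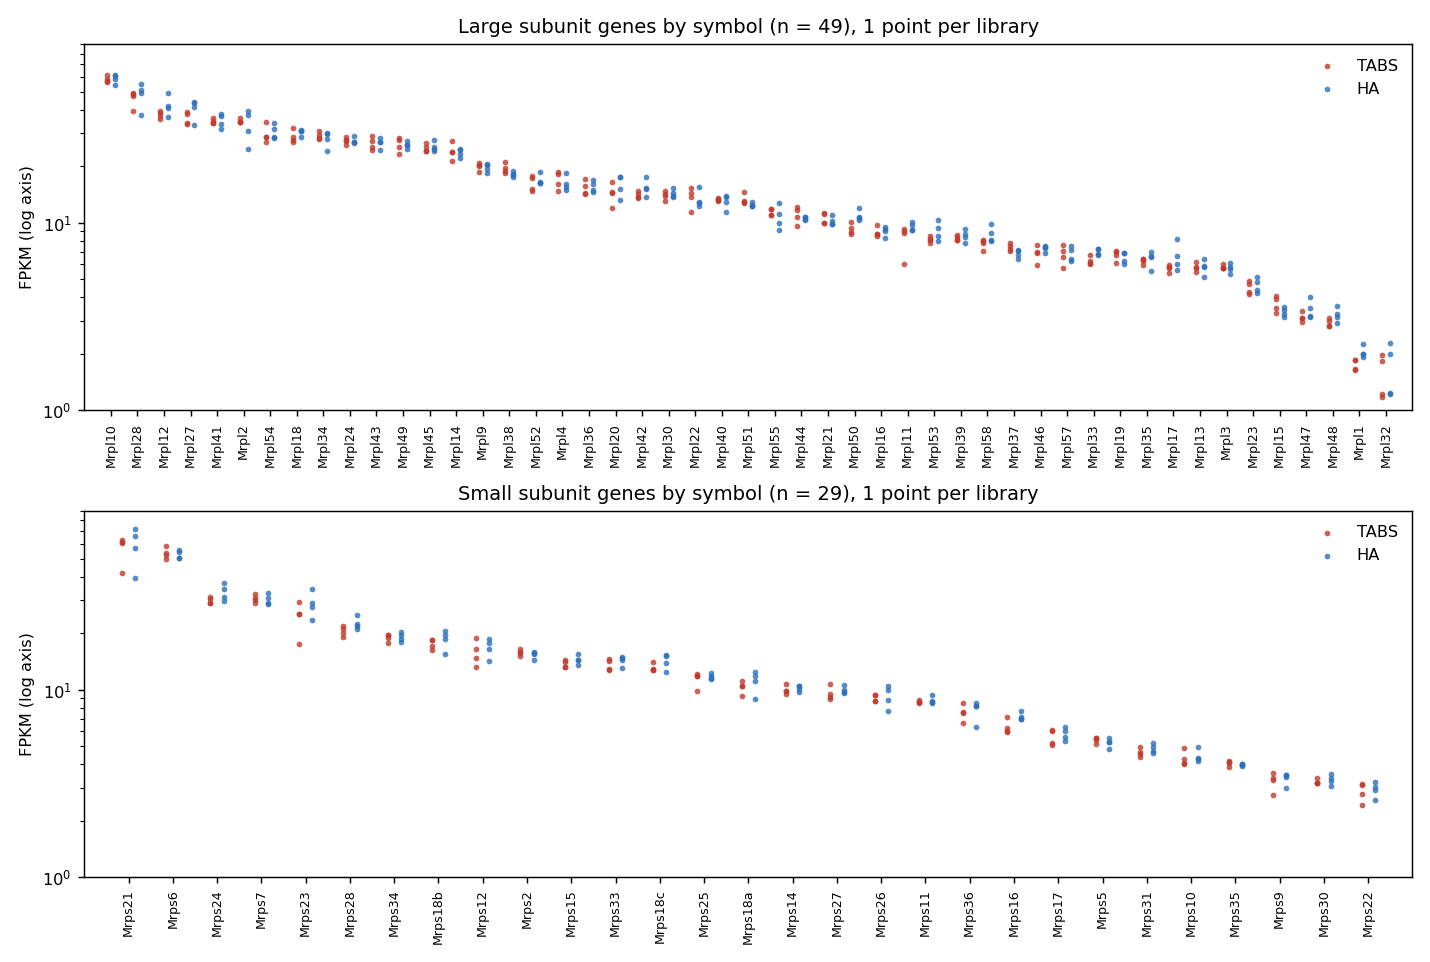
FPKM (log axis) of each large subunit gene (upper panel) and small subunit gene (lower panel), with 1 point per library, red for TABS and blue for HA, ordered by mean level. Levels fall from Mrpl10 to Mrpl32 and from Mrps21 to Mrps22, and the points of the groups lie among each other in 76 of the 78 genes.

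The highest member was Mrpl10, whose protein roots the stalk that recruits translation factors. It stood at 57.0, 56.2, 61.8 and 58.8 FPKM on TABS and at 61.6, 60.5, 58.2 and 54.4 on HA (log2 fold change -0.0043 ± 0.051 SE, limma adjusted p = 0.973). Its values in both groups covered nearly the same range. Mrpl12, the stalk protein that Mrpl10 carries, followed in the large subunit after Mrpl28, at 37.7 ± 1.73 FPKM on TABS and 42.2 ± 5.10 on HA (SD, n = 4, adjusted p = 0.272). Mrpl11, at the base of the stalk, was lower, at 8.30 ± 1.52 and 9.55 ± 0.52 FPKM. The stalk genes thus did not share 1 level.

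In the small subunit Mrps21 and Mrps6 led. Mrps21 measured 63.1, 61.0, 60.3 and 42.1 FPKM on TABS and 71.6, 39.5, 66.2 and 57.0 on HA. TABS 4 and HA 2 lay well below the rest of their groups, and the interval of its difference was among the widest (log2 fold change -0.032, unadjusted 95% interval -0.46 to 0.39). Its longest annotated transcript, 488 bases, is the shortest of the 78. Mrps6 was steadier, at 52.2, 49.9, 58.1 and 53.3 FPKM on TABS and 54.3, 55.3, 50.4 and 50.5 on HA (adjusted p = 0.874). The 5 highest genes, Mrpl10, Mrps21, Mrps6, Mrpl28 and Mrpl12, held 19.5% to 21.9% of the summed FPKM of all 78, depending on the library.

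At the low end stood Mrpl32 and Mrpl1 of the large subunit and Mrps22 and Mrps30 by symbol of the small one. Mrps22 had 2.85 ± 0.33 FPKM on TABS and 2.93 ± 0.27 on HA, and Mrps30 had 3.22 ± 0.095 and 3.30 ± 0.21 (SD, n = 4). Levels went with transcript length and with GC content. Across the 78 genes the rank correlation of mean FPKM with the length of the longest annotated transcript was -0.69, against -0.198 across 11277 tested genes. The rank correlation of mean FPKM with the GC content of that transcript was 0.643 across the 78 genes. The 78 points share libraries and counting, genes are not independent replicates, and FPKM is itself divided by length. The median longest transcript was 1870 bases for the 78 genes and 3170 bases for all tested genes.

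**Figure D2:**
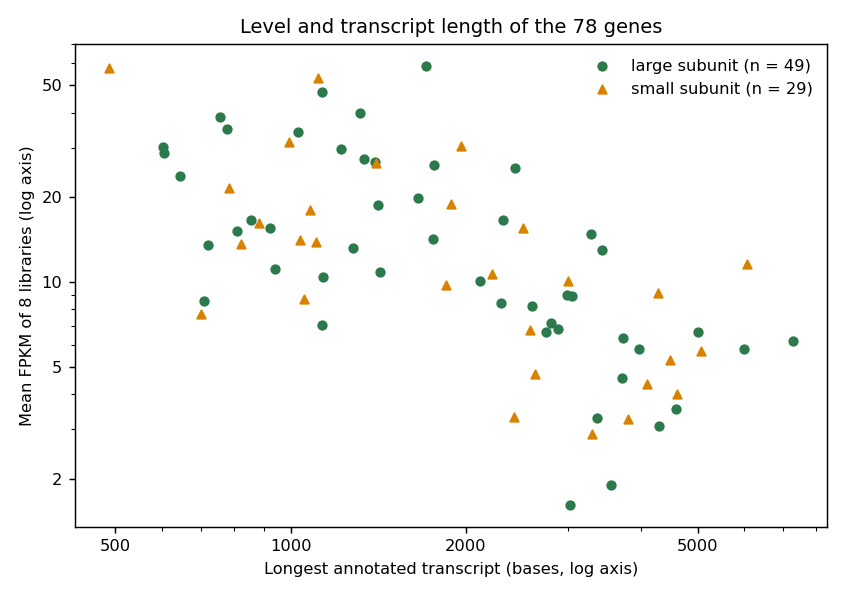
Mean FPKM over 8 libraries against the length of the longest annotated transcript in bases, both on log axes, for the 49 large subunit genes (circles) and 29 small subunit genes (triangles). Genes with short transcripts such as Mrps21 (488 bases) tend to lie at higher FPKM than those with long ones in both subunits. There are exceptions, such as Mrps36 (701 bases, 7.68 FPKM) and Mrpl53 (710 bases, 8.60 FPKM).

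Levels of the subunits lay close together. The median over genes of the mean FPKM was 13.0 for the large subunit (quartiles 6.79 and 25.3) and 10.7 for the small one (5.68 and 18.0). Per library, the median large subunit gene stood at 11.4, 13.0, 13.3 and 13.0 FPKM on TABS and at 12.8, 12.7, 12.3 and 12.1 on HA. The median small subunit gene stood at 9.84, 9.88, 11.1 and 10.8 FPKM on TABS and 11.8, 11.1, 11.6 and 10.4 on HA. The large subunit median was above the small one in each of the 8 libraries. On the log2(FPKM + 1) scale the gap between medians was 0.198, 0.368, 0.238 and 0.251 on TABS and 0.109, 0.178, 0.081 and 0.193 on HA. The gap was wider in all 4 TABS libraries than in all 4 HA libraries, though TABS 1 and HA 4 nearly met. No p is given for such a score.

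That gap rested on which genes were counted and how. Structures of the mammalian mitochondrial ribosome place Mrps30 and Mrps18a in the large subunit despite their symbols, and assign Mrps36 to another complex, the oxoglutarate dehydrogenase. With the genes sorted in that way the mean gap over the 8 libraries was -0.066 instead of 0.202, and the groups overlapped (-0.056 to 0.015 on TABS, -0.197 to 0.046 on HA). With a filter of 5 FPKM it was 0.043, and the groups overlapped too (0.051 to 0.113 on TABS and -0.147 to 0.131 on HA). With means over genes in place of medians, an alternative chosen after seeing the data, the gap was 0.131 and the groups overlapped (0.115 to 0.165 on TABS and 0.096 to 0.144 on HA). With means the gap stayed above 0 in every library, while with the other settings it did not. A difference in level between the subunits therefore depended on the setting. The wider gap on TABS without overlap of the groups was lost in each of these settings. Genes were also split by the number in their symbol, as a rough stand-in for descent from bacterial proteins. The lower class held numbers up to 36 in the large and up to 21 in the small subunit. Homology was not checked gene by gene, so genes with bacterial counterparts may stand in the higher class. The lower-numbered genes had a median of 13.9 FPKM in the large subunit (28 genes) and 12.2 in the small one (16 genes). The higher-numbered genes had medians of 11.1 (21 genes) and 9.75 (13 genes). The quartiles of all 4 classes overlapped.

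The comparison of the scaffolds asked whether the supply of these transcripts differed on TABS. By limma on log2(FPKM + 1), 0 of the 78 genes passed at adjusted p under 0.05, against a background of 7.38% of the 11280 tested genes (4.49% higher and 2.90% lower). At an unadjusted p under 0.05 there were 4 genes, all lower on TABS (5.13%, against 24.1% of all tested genes). The count of genes passing the adjusted threshold was also 0 under each alternative run for it. The median log2 fold change was -0.032 over the 78 genes, -0.023 over the large and -0.040 over the small subunit, against 0.0057 over all tested genes. Estimates were below 0 in 55 of the 78 genes (31 of 49 large, 24 of 29 small), or 70.5%, against 48% of all tested genes. Rescaling to TPM, which divides each library by its sum of FPKM, moved all genes alike. The median of the 78 genes was then 0.00335 and that of all tested genes 0.045, a difference of -0.042, against -0.038 before. With values corrected for GC content and transcript length, the median was -0.016 over the 78 genes. It was then 0.0015 over the large and -0.029 over the small subunit.

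**Figure D3:**
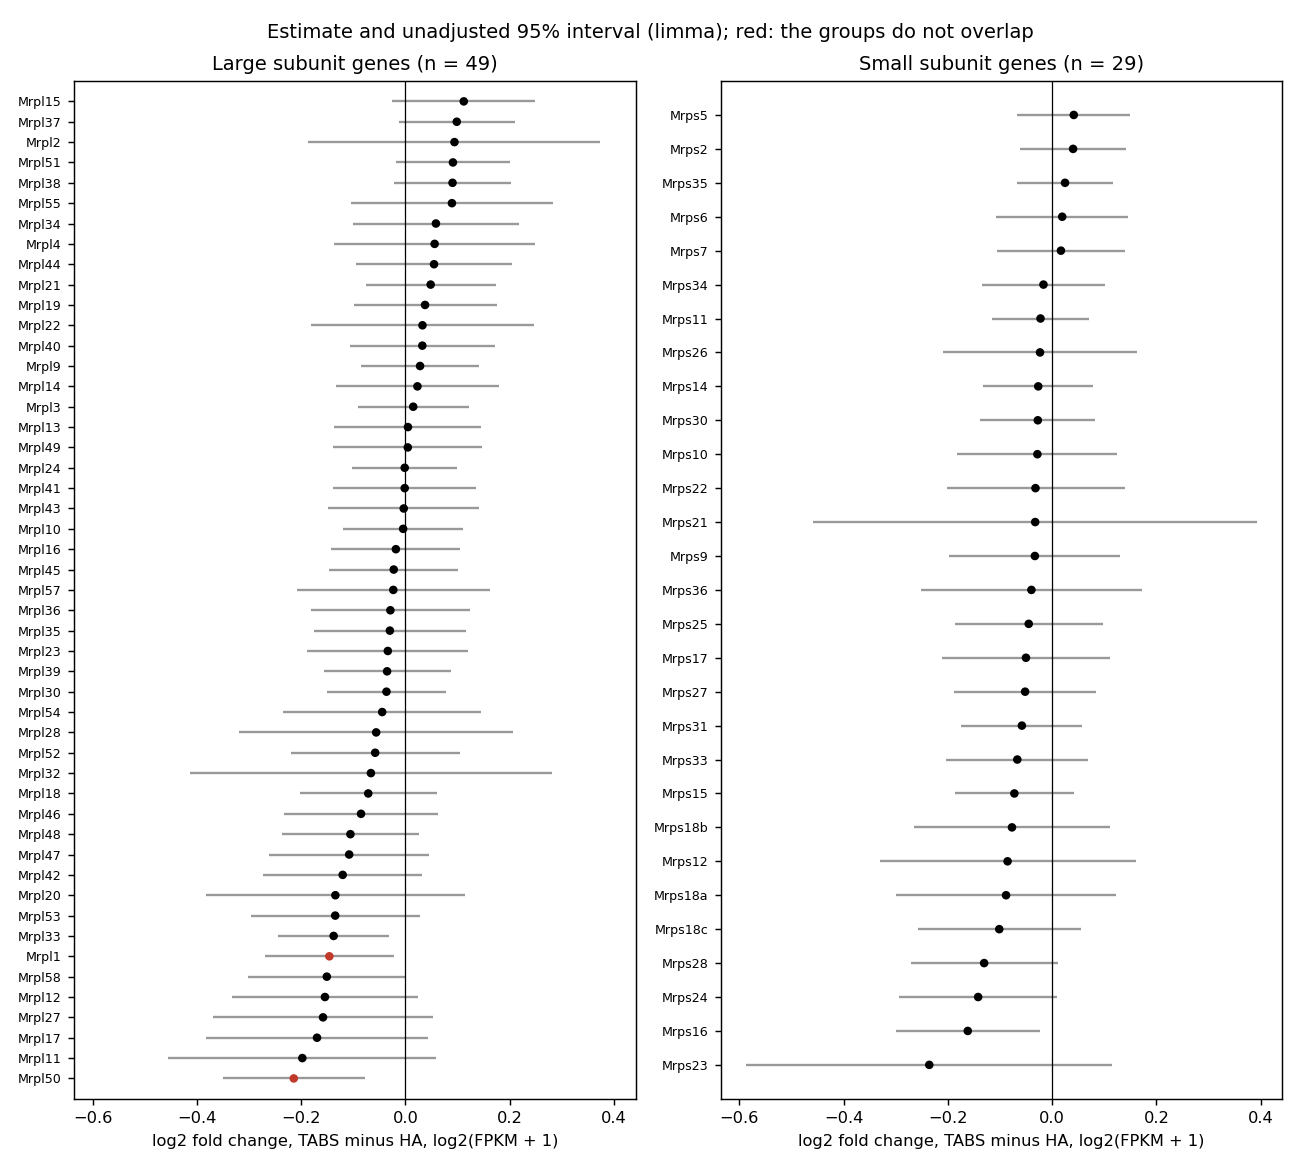
Log2 fold change, TABS minus HA, in units of log2(FPKM + 1), for each large subunit gene (left) and small subunit gene (right), with limma's unadjusted 95% interval. Estimates run from -0.24 (Mrps23) to 0.11 (Mrpl15), and the red points mark Mrpl50 and Mrpl1, whose groups do not overlap.

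The intervals show how large a difference these libraries leave room for. The unadjusted 95% interval lay within ±0.322 on the log2 scale for 67 of the 78 genes, within ±0.585 (1.5-fold) for 77 and within ±1 (2-fold) for all 78. These bounds hold on the log2(FPKM + 1) scale, which understates changes of genes near 1 FPKM such as Mrpl1 and Mrpl32. The gene outside the 1.5-fold bound was Mrps23, a mitochondria-specific protein gene of the small subunit. It measured 29.3, 25.4, 25.3 and 17.4 FPKM on TABS and 34.3, 27.7, 23.4 and 29.1 on HA. TABS 4 was the lowest library, and its spread within groups was wide (log2 fold change -0.24, interval -0.59 to 0.11, adjusted p = 0.390). Spread over all 8 libraries was modest for most genes, with a median coefficient of variation of 7.54% and a range from 2.62% (Mrps35) to 27.4% (Mrpl32).

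The groups did not overlap in 2 of the 78 genes, both lower on TABS (2.56%, against a background of 18.0% of all tested genes, 10.8% higher and 7.15% lower). Mrpl50, a large subunit protein gene with no bacterial counterpart, measured 10.1, 9.35, 8.96 and 8.73 FPKM on TABS and 10.4, 10.6, 10.8 and 12.1 on HA. Each TABS library was below each HA library, with TABS 1 and HA 1 close to each other. Its log2 fold change was -0.21 ± 0.060 SE (limma adjusted p = 0.0643), and its adjusted p ran from 0.0509 to 0.244 over the alternatives. The gene (ENSMUSG00000044018) lies on chromosome 4 from 49512596 to 49521093 in GRCm38, minus strand. After a correction for GC content and length its log2 fold change was -0.12. Its back-to-back neighbour Zfp189, a zinc finger protein gene, had a log2 fold change of -0.022 (adjusted p = 0.920).

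Mrpl1, whose protein forms the mobile stalk where spent tRNA leaves, measured 1.85, 1.66, 1.65 and 1.86 FPKM on TABS and 1.92, 2.01, 1.99 and 2.27 on HA. TABS was lower throughout, by a small margin between TABS 4 and HA 1. The log2 fold change was -0.15 ± 0.055 SE (adjusted p = 0.144) and -0.061 once corrected for GC and length. Mrpl1 (ENSMUSG00000029486) lies on chromosome 5 from 96209493 to 96266727, plus strand.

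The other 2 genes at an unadjusted p under 0.05 were Mrps16 and Mrpl33, homologues of bacterial proteins of the small and large subunit. Mrps16 stood at 5.98, 5.93, 7.17 and 6.26 FPKM on TABS and 7.10, 7.68, 6.98 and 7.00 on HA (adjusted p = 0.145). Only TABS 3 reached into the HA range. Mrpl33 stood at 6.13, 6.71, 6.28 and 6.02 FPKM on TABS and 6.82, 7.25, 7.28 and 6.71 on HA (adjusted p = 0.116). TABS 2 and HA 4 met at the border of the groups.

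Among genes whose proteins lie near the peptidyl transferase centre, Mrpl2 had 34.9 ± 0.82 FPKM on TABS and 33.1 ± 6.64 on HA, with 24.7 FPKM in HA 3 and 37.5 to 39.4 in HA 1 and HA 2. Mrpl27 had 36.2 ± 2.68 and 40.7 ± 5.18 FPKM, and Mrpl16 had 8.92 ± 0.53 and 9.05 ± 0.52 (SD, n = 4). Around the tunnel through which the new chain leaves, Mrpl22, Mrpl23 and Mrpl24 had log2 fold changes of 0.033, -0.034 and -0.0012. Mrpl45, which holds the ribosome to the inner membrane, stood at 25.1 ± 1.29 FPKM on TABS and 25.5 ± 1.58 on HA. Mrpl58, a release factor-like hydrolase that frees stalled chains and is built into the large subunit, stood at 7.73 ± 0.43 and 8.71 ± 0.85 FPKM (-0.15, adjusted p = 0.209).

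Mrps12, the decoding-site protein of the small subunit, had 15.8 ± 2.34 FPKM on TABS and 16.8 ± 1.94 on HA (adjusted p = 0.683). The paralogs Mrps18a, Mrps18b and Mrps18c, which sit at different places in the ribosome, differed in level more than between scaffolds. They stood at 10.3 ± 0.81, 17.5 ± 1.05 and 13.1 ± 0.68 FPKM on TABS and at 11.1 ± 1.51, 18.6 ± 2.23 and 14.2 ± 1.38 on HA (SD, n = 4). Mrps36 had 7.55 ± 0.77 and 7.81 ± 0.99 FPKM. The 5 highest estimates belonged to large subunit genes, namely Mrpl15, Mrpl37, Mrpl2, Mrpl51 and Mrpl38 (log2 fold changes 0.11, 0.099, 0.094, 0.091 and 0.091, adjusted p from 0.260 to 0.694). The 5 lowest were Mrps23, Mrpl50, Mrpl11, Mrpl17 and Mrps16 (-0.24, -0.21, -0.20, -0.17 and -0.16, adjusted p from 0.0643 to 0.390). For Mrpl11, TABS 1 was low at 6.02 FPKM, with 8.86 to 9.22 in the other TABS libraries, and the log2 fold change without it was -0.068. For Mrpl17, HA 3 stood out at 8.22 FPKM against 5.59 to 6.69 in the other HA libraries.

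The RNAs on which these proteins assemble had lower values on TABS than on HA. mt-Rnr2, the RNA of the large subunit, measured 148.5, 162.1, 110.2 and 126 FPKM on TABS and 222.6, 212.5, 258.7 and 294.1 on HA. All TABS libraries were below all HA libraries, and mt-Rnr2 fell by 0.85 on the log2 scale (± 0.14 SE, limma adjusted p = 0.00708). mt-Rnr1, the RNA of the small subunit, measured 74.7, 63.7, 76.4 and 80.0 FPKM on TABS and 96.4, 81.0, 88.3 and 95.1 on HA. Its groups did not overlap either, with a log2 fold change of -0.29 ± 0.080 that did not pass (limma adjusted p = 0.061). Blocking on replicate number, the adjusted p was 0.0535 for mt-Rnr2 and 0.0487 for mt-Rnr1. After the GC and length correction the log2 fold changes were -0.67 (adjusted p = 0.009) and -0.080 (adjusted p = 0.607). The share of all FPKM from the mitochondrial genome was 10.2% to 12.2% on TABS and 12.1% to 14.5% on HA, and its part in these values was not tested. The sources used here do not give how ribosomal RNA was depleted or messages were selected, so the FPKM of these RNAs need not reflect their true abundance.

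**Figure D4:**
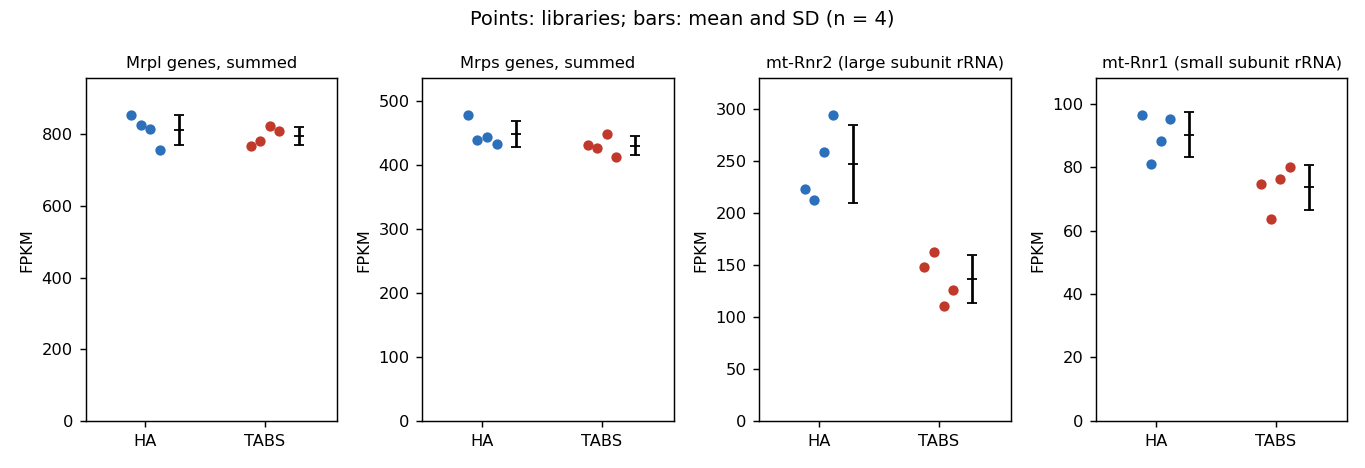
Summed FPKM of the 49 Mrpl and the 29 Mrps genes and FPKM of the mitochondrial rRNAs mt-Rnr2 and mt-Rnr1 by scaffold, with axes from 0, points for libraries and bars for mean and SD (n = 4). The summed protein genes overlap between HA and TABS, while mt-Rnr2 is at 110 to 162 FPKM on TABS and 212 to 294 on HA.

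Genes that build and serve the mitochondrial ribosome had few calls. Of all tested genes 7.38% passed, and lists this small would hold few calls at that share. Of 5 mitoribosome protein genes that carry another symbol, 0 passed by limma, and 0 at an unadjusted p under 0.05 (median log2 fold change -0.091), and all 5 estimates were below 0, from -0.17 (Aurkaip1) to -0.023. Of 26 assembly factor genes 1 rose and 0 fell (median -0.0086), and 4 were higher and 0 lower at an unadjusted p under 0.05 (15.4%, against 24.1% of all tested genes, 13.2% higher and 10.8% lower). It was Dhx30, an RNA helicase of mitochondrial granules where ribosomes mature, at 7.61, 7.48, 7.44 and 7.67 FPKM on TABS and 5.28, 6.95, 5.56 and 6.27 on HA. All TABS libraries exceeded all HA libraries (log2 fold change 0.29 ± 0.071 SE, limma adjusted p = 0.0420). That call was lost when any 1 library other than HA 2 was left out (adjusted p from 0.0658 to 0.103), once corrected for GC and length (0.106) and with the replicate block (0.101). Ddx28, another helicase of large subunit assembly, stood at 8.61 ± 0.37 and 7.67 ± 0.20 FPKM (SD, n = 4, adjusted p = 0.0722, or 0.027 after rescaling to TPM).

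Of 20 genes of mitochondrial aminoacyl-tRNA synthetases and the glutamyl-tRNA amidotransferase, 1 was higher and 4 lower at an unadjusted p under 0.05. That is 25%, against 24.1% of all tested genes. At an adjusted p under 0.05, where 7.38% of all tested genes passed, 0 rose and 1 fell (median -0.0088). This was Gatb, a subunit gene of the amidotransferase that makes mitochondrial glutaminyl-tRNA, at 5.56, 5.11, 5.95 and 6.03 FPKM on TABS and 7.62, 7.50, 7.404 and 6.75 on HA. TABS was below HA in every library (log2 fold change -0.32 ± 0.058 SE, limma adjusted p = 0.0131, 0.0777 with the replicate block). The other subunit genes of that enzyme did not pass, with Gatc at 11.8 ± 0.66 and 12.9 ± 0.70 FPKM and Qrsl1 at 3.74 ± 0.39 and 3.73 ± 0.11 (SD, n = 4). None of 15 tested translation factor genes (median -0.011) and none of 16 tested genes of mitochondrial DNA and RNA maintenance (median -0.041) passed. At an unadjusted p under 0.05 they counted 0 and 1 genes (0% and 6.25%, against 24.1% of all tested genes). The nearest were Mtrf1, a release factor gene (adjusted p = 0.280), and Polrmt, the mitochondrial RNA polymerase gene (7.48 ± 0.25 and 6.74 ± 0.36 FPKM, adjusted p = 0.126).

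Of 8 tested regulators of nuclear mitochondrial genes 0 passed and 1 was under an unadjusted p of 0.05, namely Myc (8.80 ± 0.99 and 10.3 ± 0.58 FPKM, adjusted p = 0.112, or 0.0362 without TABS 1, which held 10.2 FPKM). Nrf1 stood at 1.61 ± 0.075 and 1.52 ± 0.14 FPKM and Gabpa at 5.63 ± 0.63 and 6.05 ± 0.63, with adjusted p of 0.607 and 0.565. Ppargc1a and Ppargc1b, coactivators of mitochondrial biogenesis, were below the filter of 1 FPKM. The cytosolic ribosomal proteins, the nearest comparison set by function, had 0 higher and 1 lower of 78 tested (Rps20, log2 fold change -0.28, adjusted p = 0.0136, 0.0655 with the replicate block and 0.161 once corrected for GC and length). At an unadjusted p under 0.05 they counted 0 higher and 12 lower (15.4%, against 13.2% higher and 10.8% lower of all tested genes). Their median was -0.096. Nuclear genes of the respiratory chain had 0 of 76 tested (4 at an unadjusted p under 0.05, all lower, or 5.26%), with Ndufb4 nearest (adjusted p = 0.085), and a median of -0.027, close to that of the mitochondrial ribosomal proteins. Whether these medians differ from each other was not tested. Beside the counts of these lists, 7.38% of all tested genes passed and 24.1% were under an unadjusted p of 0.05.

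**Figure D5:**
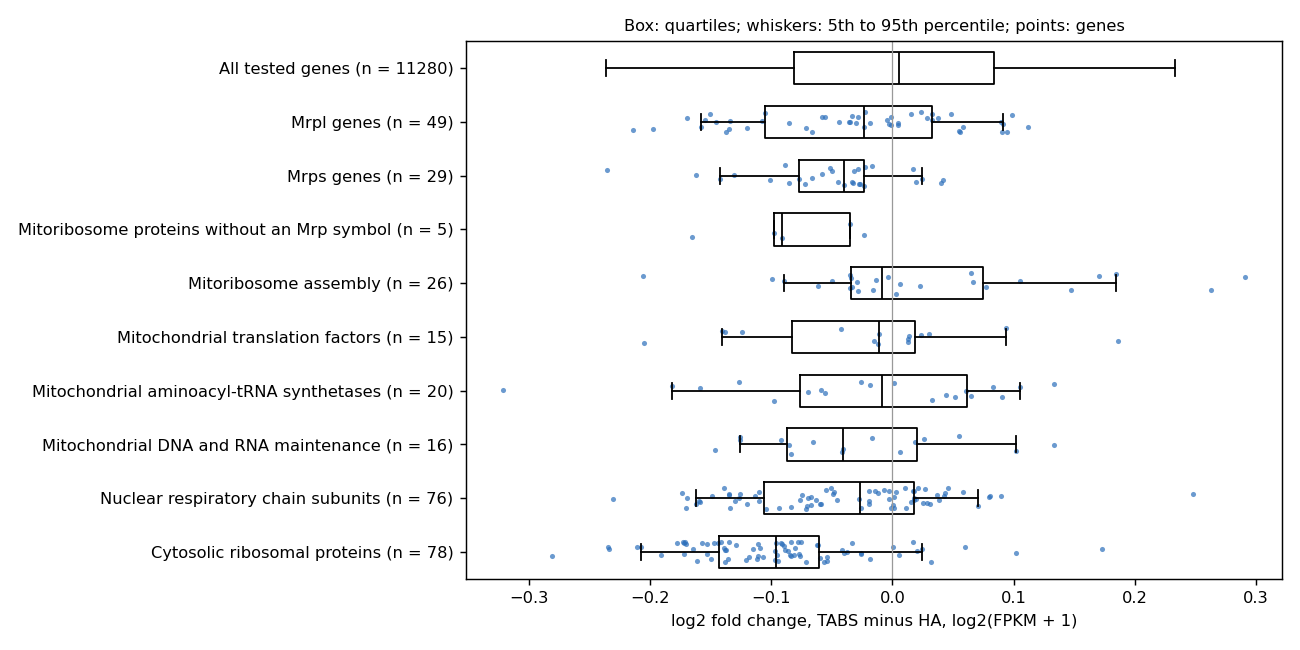
Log2 fold change, TABS minus HA, in units of log2(FPKM + 1), for all 11280 tested genes, the Mrpl and Mrps genes and 7 related lists, with boxes for quartiles, whiskers from the 5th to the 95th percentile and points for genes. The Mrpl and Mrps medians are -0.023 and -0.040, and that of the cytosolic ribosomal proteins is -0.096.

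Counting could blur some of these values. In the GENCODE annotation of GRCm38, 33 of the 78 genes share exon bases with another gene, 27 of them 100 bases or more, and the sources used here give no strand setting for the counting. The longest overlaps, all with genes on the opposite strand, are those of Mrps25 with Nr2c2 (4590 bases), Mrpl19 with Gcfc2 (1962) and Mrps34 with Mapk8ip3 (1309). On the same strand, where stranded counting would not separate the genes, the longest are Mrps34 with Nme3 (763) and Mrpl53 with Gm42688 (695). The longest annotated transcript of Mrpl53 has 710 bases. Overlaps of 100 bases or more also touch Mrpl10, Mrpl12, Mrpl33, Mrps6, Mrps24, Mrps30, Mrps18b and Mrps18c. Mrpl46 and Mrps11, a large and a small subunit gene on opposite strands of chromosome 7, share 173 exon bases. Several members have processed pseudogenes, among them Mrpl23, Mrpl48 and Mrps36, and reads could be shared with these. Fold changes followed GC content across all tested genes (rank correlation 0.354 over 11277 genes), but little among the 78 (0.126).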

How the data were processed

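RNA-seq of 8 MC3T3-E1 libraries (4 TABS, 4 HA) was used as 1 table of FPKM values, which the authors made and deposited. Per the submitters' processing notes, the authors used fastp, STAR, DESeq2 and the build GRCm38. The sources used here give neither their roles and versions nor the program behind the FPKM values nor the annotation release. Per the labels' protocols, RNA was extracted with TRIzol (integrity number above 7) and read as paired reads of 150 bases. Columns were assigned by the library names in the labels, whose letters (H for TABS, L for HA) do not match the group names. A swap would turn every direction, and no gene checks it.

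Identifiers were paired with symbols through GENCODE M21 (55154 of 55335 matched). Genes with at least 1 FPKM in at least 4 libraries (11280) entered a linear model of log2(FPKM + 1) in limma (version 3.58.1, R 4.3.3), with trended variances, two-sided, no block, and Benjamini-Hochberg adjustment over all tested genes. Intervals are unadjusted 95% intervals. The procedure was tested on simulated data, drawn as independent normal values with the spread of each gene. Such data hold no trend with GC content and no deviation shared by the genes of a library, so the test does not cover these. Alternatives were pseudocounts of 0.1 and 5, no filter, a filter of 5 FPKM, TPM, median-of-ratios and quantile scaling, constant and robust prior variances, the replicate block, splines on GC content and log transcript length (5 degrees of freedom each), leaving out each library, and other member lists. Of the genes on the related lists, 1 (Prorp) was not matched.

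The members, lists and tests were chosen with earlier results of these data known. Genes were named if they passed the test, did not overlap between groups, were the 3 highest or 2 lowest of a subunit or the 5 with the largest change in a direction, or by place and role (Mrps30, Mrps36, Mrps18a to c, Mrpl12, Mrpl58), with the leading gene of each related list. The mitochondrial rRNAs, Ddx28, Mrps35, Mrpl33, the genes named by role at the peptidyl transferase centre and exit tunnel, the regulators other than Myc and the printed sequences were chosen after values were seen. No protein sequences were used here.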

Additional observations from a re-analysis of the deposited data

Results flagged for a closer look

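In 9 of 90 groups of 4 libraries checked (named genes and measures of a whole library), 1 library lay far from the other 3 by Dixon's test at its 95% critical value. Chance gives about 1 such group in 20 where groups are picked without regard to their values. Many of the named genes were picked from these same values, so that rate need not hold for them. In TABS 1, Mrpl28 was at 39.4 FPKM (47.4 to 49.0 in the other TABS libraries) and Mrpl11 at 6.02 (8.86 to 9.22). The median of the large subunit genes was also low there, at 11.4 FPKM (13.0 to 13.3 in the others). In TABS 4, Mrps21 was low at 42.1 FPKM (60.3 to 63.1), while Mrps30 was high at 3.36 (3.16 to 3.19), Mrpl2 at 36.1 (34.4 to 34.6) and Mrps18c at 14.1 (12.7 to 12.8). In TABS 3, Mrpl51 was high at 14.7 FPKM (12.8 to 13.1). In HA 4, Mrps36 was low at 6.35 FPKM (8.19 to 8.51).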

How the results depend on the processing

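The count of mitochondrial ribosomal protein genes passing the test was 0 in each alternative run, including the replicate block and each library left out. The background of all tested genes moved from 833 to 542 with no filter on low FPKM, to 230 with the replicate block and to 331 with the GC and length correction and the block, and ran from 415 to 718 with 1 library left out. That count was higher after rescaling to TPM (1154), with the GC and length correction alone (947) and after quantile normalization (901). The median log2 fold change of the 78 genes was 0.00335 after rescaling to TPM instead of -0.032, and that of the small subunit -0.00371 instead of -0.040. TPM shifted all genes alike (median of all tested genes 0.045 instead of 0.0057), and relative to all tested genes the 78 lay at -0.042 instead of -0.038 and the small subunit at -0.049 instead of -0.045. With 1 library left out the median of the 78 genes, not set relative to all tested genes, ran from -0.044 to -0.018. With the GC and length correction, also not set relative to all tested genes, it was -0.016. The large subunit median was then 0.0015 instead of -0.023, and the small one -0.029 instead of -0.040. The mean gap between large and small subunit levels (0.202) was 0.043 with a filter of 5 FPKM, -0.066 with subunits taken from structures and 0.131 with means over genes. The difference of that gap between TABS and HA was 0.123, but 0.064 with a filter of 5 FPKM, 0.081 with subunits taken from structures and 0.020 with means over genes, and the groups overlapped in all 3. It ran from 0.089 (without TABS 2) to 0.145 with 1 library left out, and the groups also overlapped after quantile normalization and after the GC and length correction. Replicate numbers are shared by the groups, but same-numbered libraries did not deviate together (correlations of 0.105, 0.050, -0.104 and -0.058, and 2 of 8 libraries correlating best with their own number). With the replicate block the calls on Dhx30, Gatb, Rps20 and mt-Rnr2 were lost and mt-Rnr1 passed, as given above. The cause of these shifts was not tested. Without read totals, no limit from depth can be given.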

Other observations

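Mrpl32, a homologue of a bacterial large subunit protein whose maturation by a protease of the inner membrane is known to gate ribosome assembly, had the widest relative spread of the 78 genes. Its values fell into a low and a high set that cut across the scaffolds. TABS 3, TABS 4, HA 1 and HA 2 stood at 1.185, 1.228, 1.245 and 1.222 FPKM, and TABS 1, TABS 2, HA 3 and HA 4 at 1.83, 1.97, 2.28 and 1.99. The groups therefore differed little (1.55 ± 0.40 FPKM on TABS and 1.69 ± 0.53 on HA, SD, n = 4, limma adjusted p = 0.839). Its back-to-back neighbour Psma2, a proteasome subunit gene, stood at 21.1 FPKM on TABS and 20.7 on HA (adjusted p = 0.841).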
